A study of Mus musculus with 14 samples.

Results

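Interferon-stimulated genes are the genes that cells switch on when interferons bind their receptors. A set of 50 of them, chosen by name to cover genes known to respond to type I and type II interferons outside the Ifi200 cluster, was followed through RNA sequencing of cultured mouse CD8 T cells. All 50 were found in the table of 55486 genes. Of these, 5 belong to the OAS family, 4 to the IFIT family, 5 are RNA sensors, 11 are other antiviral effectors, 5 are ubiquitin and ADP-ribose ligases, 5 are regulators, 8 are GBP and IRG GTPases and 7 serve antigen processing.

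The cells were CD8 T cells carrying 1 copy of the OT-I T cell receptor transgene, activated with antibodies to CD3 and CD28 on day 0 and harvested on day 8. The KO group (3 libraries, animals named KO1 to KO3) carried CreERT2, a Cre recombinase activated by tamoxifen, on 1 allele and a floxed Dot1l gene on both alleles. The WT group (3 libraries, animals WT6 to WT8) carried the same CreERT2 with wild-type Dot1l, and both groups received 10 nM 4-hydroxytamoxifen on day 0. The EPZ group (4 libraries) had neither CreERT2 nor a floxed allele and was given EPZ-5676, an inhibitor of the histone H3 lysine 79 methyltransferase DOT1L, every 2 days. The treatment label puts its dose at 10 mM while the library name has 10 uM, and which was used is unknown. The DMSO group (4 libraries) had the same genotype and received 0.1% DMSO, and by the library names each of the animals WT1, WT2, WT3 and WT4 gave 1 EPZ and 1 DMSO library. Each p-value sets a difference between groups against the spread between these libraries. The main test of EPZ against DMSO treated them as independent and did not use the pairing by animal, which was run as an alternative. The labels give neither the ages of the mice nor the promoter that drives CreERT2.

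Library totals ran from 5643724 to 20586093 counts, and the 50 genes took 0.576% to 0.651% of each library. Levels are in CPM, read counts brought to a common scale by TMM factors over all 14 libraries. The Dot1l gene itself stood at 218, 201 and 189.7 CPM in the libraries labelled KO, against 135, 140.1 and 133 CPM in WT (log2 fold change 0.59 ± 0.07, adjusted p = 1.3e-05). A count summed along the gene cannot reveal that a piece of it was deleted, so the KO label is not checked by this value. Xist and Ddx3y went against the labelled sex in KO 2, KO 3, WT 2 and WT 3, and matched it in KO 1, WT 1 and all EPZ and DMSO libraries. With sex as read from these genes as a covariate, 23 interferon-stimulated genes were called between KO and WT (15 higher, 8 lower), as many as without it.

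The CD8 T cell label was read on Cd3e, which lay between 461 and 637 CPM in all libraries, and on the co-receptor gene Cd8a. Cd8a had 122, 134 and 89.3 CPM in KO and 682, 707 and 729 CPM in WT, and 369.9, 405, 402 and 417 CPM in EPZ and 805, 858, 856 and 818 CPM in DMSO. Of 10 CD8 T cell markers, 7 fell in KO and 6 fell in EPZ, where 20.2% and 8.31% of all genes tested fell. Markers of other cells ranged widely within their lists. Cd79a of B cells and Lyz2 and Csf1r of myeloid cells stayed under 0.4 CPM in all libraries, and Siglech of plasmacytoid dendritic cells had no count. Ighm, the heavy chain of IgM, averaged 124 ± 11.5 CPM in KO and 529 ± 53.1 CPM in WT, and 489 ± 61.4 CPM in EPZ and 1105 ± 116 CPM in DMSO (SD, n = 3 and n = 4), and fell in both comparisons. The integrin gene Itgax averaged 32.3 ± 5.38 CPM in KO and 8.03 ± 1.31 CPM in WT and rose in KO, and Itgam rose in KO (log2 fold change 2.61 ± 0.43, adjusted p = 0.00034) and in EPZ (log2 fold change 1.06 ± 0.33, adjusted p = 0.044). Of 6 NK cell markers, 3 of 4 tested rose in KO, against 20.3% of all genes tested, and the lowest log2 fold change was -0.58. The summed level of the 6 was 83.2 to 104 CPM in KO against 15.6 to 25.2 CPM in WT. Most of the KO sum was Klrb1c, with 581, 1251 and 742 counts, beside 28, 89 and 47 for Ncr1. Summed myeloid and dendritic markers were 36.2 to 52.2 CPM in KO and 13.0 to 17.0 CPM in WT, summed B cell markers 121 to 141 CPM in KO and 484 to 594 CPM in WT. In KO most of the myeloid sum was Itgax (267, 493 and 328 counts) and most of the B cell sum Ighm (932, 2572 and 1042 counts). In EPZ the NK sum was 23.4 to 35.3 CPM against 5.57 to 7.40 CPM in DMSO, and the B cell sum 424 to 555 CPM against 1041 to 1295 CPM. Summed plasmacytoid dendritic cell markers, of which 5 of 7 had counts, were 173 to 185.0 CPM in KO and 85.6 to 109.6 CPM in WT, and 48.2 to 77.5 CPM in EPZ and 32.1 to 48.3 CPM in DMSO. Nearly all of the KO sum was Irf8 (1110, 2573 and 1263 counts) and Tcf4 (318, 660 and 386 counts). In KO, Spib and Ccr9 had no count and Cox6a2 had 1, 4 and 3. Both that were tested, Tcf4 (1.58) and Irf8 (0.67), rose in KO, and Tcf4 (0.78) rose in EPZ. The myeloid and dendritic sum was 10.2 to 11.1 CPM in EPZ and 7.70 to 12.3 CPM in DMSO. The part of these shifts in the results below was not tested, and in bulk RNA fewer cells of a type and less RNA per cell cannot be told apart.

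Type I interferons signal through the receptor chains IFNAR1 and IFNAR2 and the kinases JAK1 and TYK2, which activate a complex containing STAT2 and IRF9 that binds the interferon-stimulated response element (ISRE). Interferon gamma, a type II interferon that activated CD8 T cells themselves secrete, signals through IFNGR1 and IFNGR2 with JAK1 and JAK2, and the promoter element of its direct targets is the gamma-activated site (GAS). DOT1L adds methyl groups to lysine 79 of histone H3 in the bodies of transcribed genes.

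Promoter sequence was taken from RefSeq on build GRCm38.p6, as 300 bases from 250 before to 50 after an annotated start, and held 37 of the 50 genes. The ISRE core searched was GAAA, any 2 bases, GAAA on both strands, and the GAS core was TTC, any 3 bases, GAA, which reads the same on both strands. An ISRE core lay in 21 of the 37 promoters (56.8%), against 3.99% of 27025 genes, and a GAS core in 12 (32.4%), against 9.55%. All 7 GTPase genes and all 3 RNA sensor genes with a promoter had an ISRE core, against 1 of 5 antigen processing genes. The genes were picked as interferon-responsive, so these shares describe them and no more. Shown here are the 5 genes with a promoter that were called in both comparisons below and 2 abundant genes called in neither, with the ISRE and GAS cores in capitals and the strand of the gene.
Oasl2 (chr5:114896684-114896983): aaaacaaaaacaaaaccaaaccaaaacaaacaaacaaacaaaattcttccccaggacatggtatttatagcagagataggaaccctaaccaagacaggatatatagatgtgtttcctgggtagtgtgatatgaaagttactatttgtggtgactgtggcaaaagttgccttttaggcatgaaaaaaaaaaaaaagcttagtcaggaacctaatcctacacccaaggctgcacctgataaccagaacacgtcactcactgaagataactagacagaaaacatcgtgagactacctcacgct
Ifih1 (chr2:62646206-62646505): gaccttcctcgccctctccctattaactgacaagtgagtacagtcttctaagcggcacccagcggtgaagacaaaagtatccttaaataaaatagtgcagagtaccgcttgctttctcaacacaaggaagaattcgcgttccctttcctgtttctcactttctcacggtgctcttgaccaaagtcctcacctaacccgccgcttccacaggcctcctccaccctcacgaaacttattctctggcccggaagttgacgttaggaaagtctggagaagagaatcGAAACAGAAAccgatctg
Irgm1 (chr11:48871371-48871670): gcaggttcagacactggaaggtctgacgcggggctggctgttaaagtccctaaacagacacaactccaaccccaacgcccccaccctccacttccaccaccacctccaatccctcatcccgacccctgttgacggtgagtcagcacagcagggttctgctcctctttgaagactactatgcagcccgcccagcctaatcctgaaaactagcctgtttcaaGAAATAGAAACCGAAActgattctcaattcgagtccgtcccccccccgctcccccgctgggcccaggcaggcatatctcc
Gbp7 (chr3:142530086-142530385): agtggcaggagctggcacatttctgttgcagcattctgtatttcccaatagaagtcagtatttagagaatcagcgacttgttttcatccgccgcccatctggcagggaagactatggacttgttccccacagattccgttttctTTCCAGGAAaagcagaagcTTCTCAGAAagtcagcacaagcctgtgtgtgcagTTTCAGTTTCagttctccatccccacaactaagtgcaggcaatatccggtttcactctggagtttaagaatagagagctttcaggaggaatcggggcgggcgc
Trim30a (chr7:104465144-104465443): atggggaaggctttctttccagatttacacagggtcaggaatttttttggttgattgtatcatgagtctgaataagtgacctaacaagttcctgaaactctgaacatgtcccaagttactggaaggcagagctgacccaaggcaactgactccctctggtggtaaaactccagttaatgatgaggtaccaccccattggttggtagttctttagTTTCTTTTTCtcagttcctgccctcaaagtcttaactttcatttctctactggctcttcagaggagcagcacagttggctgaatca
B2m (chr2:122147437-122147736): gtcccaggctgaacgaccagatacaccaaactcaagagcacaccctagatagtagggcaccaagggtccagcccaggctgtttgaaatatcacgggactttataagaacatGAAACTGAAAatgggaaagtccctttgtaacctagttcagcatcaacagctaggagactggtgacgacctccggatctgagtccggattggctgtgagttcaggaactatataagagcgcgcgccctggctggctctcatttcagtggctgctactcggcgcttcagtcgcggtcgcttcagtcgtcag
Psmb8 (chr17:34197945-34198244): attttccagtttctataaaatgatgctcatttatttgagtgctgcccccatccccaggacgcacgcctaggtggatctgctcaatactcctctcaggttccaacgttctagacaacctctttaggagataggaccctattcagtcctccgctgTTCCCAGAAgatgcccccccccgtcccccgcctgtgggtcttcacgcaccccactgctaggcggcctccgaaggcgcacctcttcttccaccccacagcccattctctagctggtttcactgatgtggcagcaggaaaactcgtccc
In Irgm1 a pair of overlapping ISRE cores began at bases 221 and 227 of the 300. Gbp7 held 1 ISRE core on the other strand and 2 GAS cores. The Ifih1 core lay after the start, at bases 283 to 292, and the Oasl2 window held neither core. B2m, which was called in neither comparison, has an ISRE core at bases 112 to 121, and Trim30a, which fell in both, at bases 215 to 224 on the other strand. The start used for Irgm1 lies 263 bases inside the annotated gene, and that for Psmb8 lies 474 bases inside it.

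Between KO and WT the genes moved in both directions. Of 46 tested, 15 rose and 8 fell in KO and 23 were not called, at a Benjamini-Hochberg adjusted p under 0.05 over all genes. Across all 11570 genes tested, 40.4% were called, 20.3% higher and 20.2% lower, and nothing particular to the interferon-stimulated genes is read from their count. The counts by subgroup below are read in the same way. Their median log2 fold change was 0.09, against -0.01 over all genes. The genes with the highest fold changes were Oasl1, Oasl2, Oas1a, Rsad2 and Ifih1. Oas2, Ifit3b, Ifi44 and Mx2 had too few counts to be tested, and a member could pass this filter through its higher group alone. Oasl1, Oasl2 and Oas1a passed it through the KO libraries, as too few of their WT libraries had enough counts. Their p-values and their lack of overlap between KO and WT are therefore description only. Oasl1 rested on 152 counts in all KO libraries and 19 in all WT libraries, Oasl2 on 256 and 40, and Oas1a on 83 and 35.

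Between EPZ and DMSO fewer were called. Of 47 tested, 9 rose and 3 fell in EPZ and 35 were not called. Over 12208 genes, 20.2% were called, 11.9% higher and 8.31% lower, and the count of members is again read as no more than a description. The median log2 fold change of the members was 0.08 and that of all genes -0.01. Oasl1, Ifi44 and Mx2 were not tested. The genes called higher in both comparisons were Oasl2, Ifih1, Irgm1, Gbp4 and Gbp7, and those lower in both were Ifi27 and Trim30a. Of the 45 tested in both, 29 (64.4%) had the same sign, against 72.3% of 11364 genes, and the correlation of the fold changes across the genes was 0.84 and over all genes 0.79, with no test since genes are not independent.

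**Figure D1:**
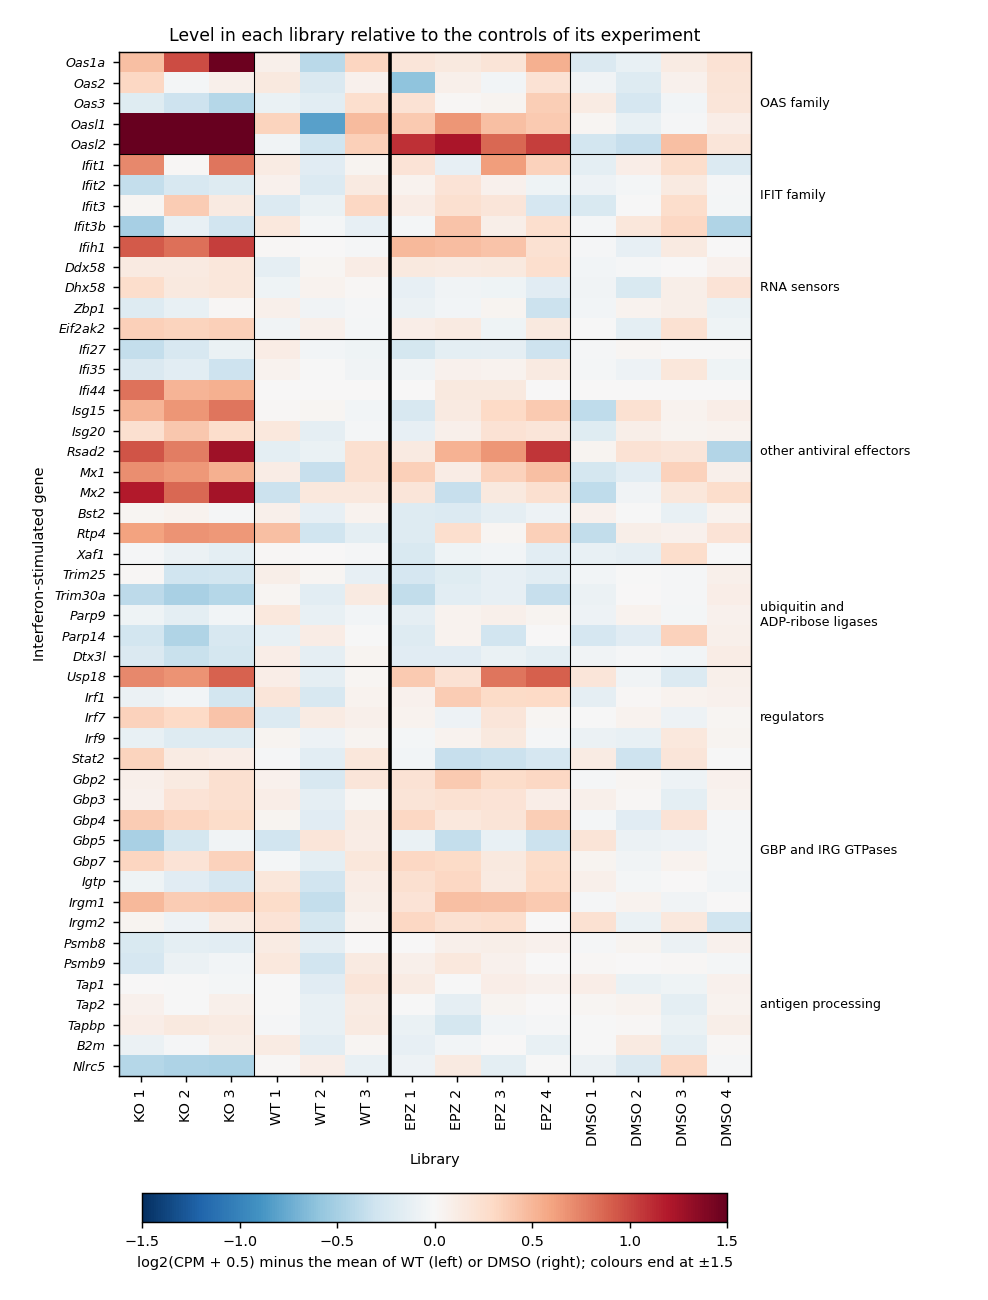
Heat map of the 50 genes (rows, by subgroup) in the 14 libraries (columns), coloured by log2(CPM + 0.5) minus the mean of the WT libraries (left of the thick line) or the DMSO libraries (right). Oasl1 and Oasl2 stand out in all 3 KO libraries, Oasl2 also in all 4 EPZ libraries, and the antigen processing rows other than Nlrc5 stay pale.

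The oligoadenylate synthetase (OAS) proteins sense double-stranded RNA and make an oligoadenylate messenger, and the OASL proteins resemble them. Oasl2 (chr5:114896936-114912234) and Oasl1 (chr5:114923240-114937915) are neighbours on the plus strand. Oasl2 had 7.35, 7.37 and 6.72 CPM in KO and 0.968, 0.733 and 1.44 CPM in WT (log2 fold change 2.60 ± 0.23, adjusted p = 1.4e-06). In the inhibitor experiment it had 3.53, 3.91, 2.93 and 3.37 CPM in EPZ and 1.05, 0.983, 2.08 and 1.64 CPM in DMSO (log2 fold change 1.33 ± 0.24, adjusted p = 0.003). Every KO library lay above every WT library and every EPZ library above every DMSO library. Oasl1 had 3.17, 4.86 and 4.03 CPM in KO and 0.605, 0 and 0.722 CPM in WT (log2 fold change 2.87 ± 0.37, adjusted p = 4.7e-05), again without overlap. Its EPZ libraries held 0.326, 0.496, 0.360 and 0.329 CPM and its DMSO libraries 0.144, 0.0820, 0.123 and 0.172 CPM, from 26 and 7 counts in all, too few for the test.

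Oas1a, which had 1.39, 2.24 and 3.36 CPM in KO and 0.968, 0.550 and 1.24 CPM in WT, rose (log2 fold change 1.17 ± 0.35, adjusted p = 0.016) with a wide spread among the KO libraries. Its adjusted p was 0.0501 without KO 2 and 0.0674 without KO 3, and 0.0601 with DESeq2 (0.00166 to 0.0674 over the alternatives). Oas3, the most abundant of the family per transcript length, moved the other way, at a mean of 69.1 ± 6.02 CPM in KO and 86.1 ± 13.9 CPM in WT (SD, n = 3 each; log2 fold change -0.32 ± 0.10, adjusted p = 0.023), with adjusted p of 0.0919 without KO 2, 0.101 without KO 3 and 0.137 without WT 3. With all 14 libraries in 1 fit the adjusted p of Oas3 was 0.0579. So 3 of the 4 OAS genes tested rose in KO and 1 fell, while in EPZ Oasl2 rose and the other 3 were not called.

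**Figure D2:**
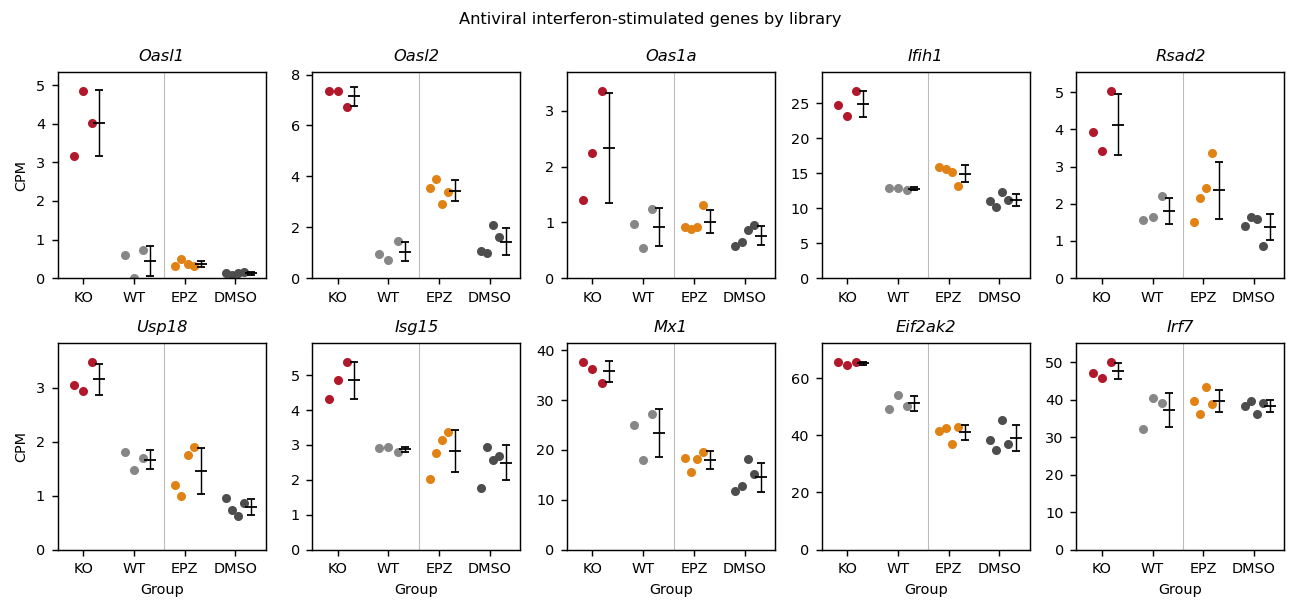
CPM of 10 antiviral and regulatory genes in each library (dots), with the mean and SD of the group (bars), and a linear axis from 0. The 10 were picked from the 15 members called higher in KO, so the gap between their groups is part of that choice. Oas3, Ifit2, Ifi27 and Ifi35, which fell in KO, are not shown. The KO dots of all 10 genes lie above all WT dots of the same gene, by a small margin for Oas1a.

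The RNA sensors detect viral RNA in the cytosol. Ifih1 (chr2:62595798-62646255) encodes MDA5, a sensor of long double-stranded RNA, and rose in both experiments. It had 24.7, 23.1 and 26.8 CPM in KO and 12.9, 12.8 and 12.6 CPM in WT (log2 fold change 0.96 ± 0.10, adjusted p = 8.1e-06). It had 15.8, 15.5, 15.1 and 13.2 CPM in EPZ and 10.98, 10.2, 12.3 and 11.2 CPM in DMSO (log2 fold change 0.43 ± 0.09, adjusted p = 0.0084). The groups of each pair did not overlap, and both calls held under every alternative run. Eif2ak2, the gene of the kinase PKR that stops translation on double-stranded RNA, had 65.7, 64.6 and 65.5 CPM in KO and 49.1, 54.1 and 50.3 CPM in WT (log2 fold change 0.37 ± 0.07, adjusted p = 0.0011), and was not called in EPZ. Ddx58, the gene of the sensor RIG-I, rose slightly in EPZ, at 119.7, 118, 119 and 128 CPM against 105, 107, 108 and 113 CPM in DMSO (log2 fold change 0.17 ± 0.05, adjusted p = 0.038), but it lost the call whichever library was left out, with an adjusted p of 0.128 without DMSO 1, 0.116 without DMSO 2, 0.0652 without DMSO 3, 0.06 without DMSO 4, 0.0807 without EPZ 1, 0.0676 without EPZ 2, 0.0665 without EPZ 3 and 0.103 without EPZ 4. The Ddx58 call was also lost with no filter (adjusted p = 0.167) and with sex as a covariate (0.0536). Dhx58 and Zbp1 were called in neither comparison.

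The IFIT proteins bind viral RNA and block its translation. Of 3 tested in KO, Ifit2 fell, with 24.3, 26.5 and 27.4 CPM in KO and 32.9, 27.1 and 34.4 CPM in WT (log2 fold change -0.28 ± 0.10, adjusted p = 0.031), and the groups overlapped at their edges. The adjusted p was 0.118 without KO 1, 0.107 without KO 2, 0.0811 without WT 1 and 0.15 without WT 3. It was also 0.132 with DESeq2, 0.0538 with the filter of 10 CPM and 0.0587 with the replicate block. Ifit1 and Ifit3 were not called, and none of the 4 IFIT genes was called in EPZ. Ifit3 and Ifit3b are near copies, so the split of reads between them is uncertain.

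Among the 9 other antiviral effectors tested in KO, 5 rose and 2 fell. Rsad2 (viperin, which makes a chain-terminating nucleotide) had 3.93, 3.42 and 5.04 CPM in KO and 1.57, 1.65 and 2.22 CPM in WT (log2 fold change 1.07 ± 0.24, adjusted p = 0.0033). Mx1, a dynamin-like GTPase that traps viral nucleoproteins, had 37.7, 36.3 and 33.5 CPM in KO and 24.9, 17.96 and 27.2 CPM in WT (log2 fold change 0.58 ± 0.12, adjusted p = 0.0015). Neither gene overlapped between KO and WT. Rtp4 had 23.7, 25.1 and 24.5 CPM in KO and 21.3, 12.5 and 13.97 CPM in WT (log2 fold change 0.64 ± 0.15, adjusted p = 0.0043), with WT 1 closest to the KO libraries. Isg15, the ubiquitin-like modifier, averaged 4.85 ± 0.532 CPM in KO and 2.87 ± 0.0786 CPM in WT (log2 fold change 0.78 ± 0.19, adjusted p = 0.0049), and DESeq2 gave an adjusted p of 0.053, in a range of 0.00252 to 0.053 over the alternatives. Isg20, a 3' to 5' exonuclease, averaged 19.6 ± 1.25 CPM in KO and 15.8 ± 1.71 CPM in WT (log2 fold change 0.33 ± 0.11, adjusted p = 0.028; 0.142 without KO 2, 0.0606 without WT 2 and 0.0974 without WT 3). For Isg20, DESeq2 gave an adjusted p of 0.118 and the replicate block 0.0568.

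Ifi27 fell in both experiments. It had 89.4, 96.7 and 107 CPM in KO and 124, 111 and 109 CPM in WT (log2 fold change -0.22 ± 0.08, adjusted p = 0.039), and 92.6, 101, 102 and 89.4 CPM in EPZ and 110.0, 114, 111 and 111 CPM in DMSO (log2 fold change -0.21 ± 0.06, adjusted p = 0.024). The adjusted p was 0.163 without KO 1, 0.141 without KO 2 and 0.15 without WT 1 in the first comparison and 0.0631 without DMSO 2, 0.0706 without EPZ 1 and 0.0659 without EPZ 4 in the second. In the first it was also 0.0736 with DESeq2, 0.0654 with the filter of 10 CPM and 0.0701 with the replicate block. Ifi35 also fell in KO (log2 fold change -0.21 ± 0.07, adjusted p = 0.035), with an adjusted p of 0.0847 without KO 1, 0.0644 without KO 2, 0.118 without KO 3, 0.107 without WT 1 and 0.0539 without WT 2. Its call was also lost with DESeq2 (0.139), with no filter (0.0639) and with the filter of 10 CPM (0.0559). Of the 2 effectors with too few counts, Mx2 had 1.27, 0.907 and 1.34 CPM in KO and 0.121, 0.367 and 0.361 CPM in WT, and Ifi44 had 0.380, 0.214 and 0.224 CPM in KO and no count in WT. Of the 9 effectors tested in EPZ, Ifi27 was the 1 called. Rsad2 had 1.52, 2.15, 2.42 and 3.37 CPM in EPZ and 1.39, 1.64, 1.59 and 0.861 CPM in DMSO, which was not called (log2 fold change 0.77 ± 0.28, adjusted p = 0.079; 0.0448 with all 14 libraries in 1 fit and 0.0399 without EPZ 1, and 0.0399 to 0.203 over the alternatives). Mx1 had 18.5, 15.5, 18.3 and 19.6 CPM in EPZ and 11.8, 12.7, 18.3 and 15.2 CPM in DMSO, also not called (log2 fold change 0.33 ± 0.13, adjusted p = 0.099; 0.0488 with sex as a covariate and 0.0254 without DMSO 3, and 0.0254 to 0.253 over the alternatives).

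The ubiquitin and ADP-ribose ligases tune the response. Of the 5, 3 fell in KO and 2 fell in EPZ, and none was called higher in either. Trim30a, a negative regulator of innate signalling in mice, fell in both. It had 52.6, 49.4 and 51.3 CPM in KO and 70.9, 61.8 and 75.9 CPM in WT (log2 fold change -0.45 ± 0.08, adjusted p = 0.00061), with no overlap. It had 77.7, 89.8, 92.1 and 78.5 CPM in EPZ and 94.3, 101, 98.9 and 107 CPM in DMSO (log2 fold change -0.24 ± 0.07, adjusted p = 0.034), and the adjusted p was 0.0758 without DMSO 2, 0.0736 without DMSO 4, 0.0967 without EPZ 1 and 0.0955 without EPZ 4. Dtx3l, a ubiquitin ligase that pairs with PARP9, had 138, 128 and 133 CPM in KO and 172, 146 and 165 CPM in WT (log2 fold change -0.27 ± 0.07, adjusted p = 0.0061). Parp14, an ADP-ribosyltransferase, had 89.1, 78.5 and 91.4 CPM in KO and 99.8, 117 and 108 CPM in WT (log2 fold change -0.32 ± 0.08, adjusted p = 0.0074; 0.0649 without KO 2, and 0.067 with all 14 libraries in 1 fit). Trim25, the ligase that activates RIG-I, fell in EPZ, at 128, 135, 140.1 and 137 CPM against 147, 152, 150.3 and 160.0 CPM in DMSO (log2 fold change -0.17 ± 0.05, adjusted p = 0.035), with adjusted p values of 0.0509 without DMSO 1, 0.0764 without DMSO 2, 0.0935 without DMSO 4, 0.102 without EPZ 1, 0.088 without EPZ 2 and 0.0679 without EPZ 4. The Trim25 call was also lost with no filter (adjusted p = 0.106), with sex as a covariate (0.0512) and with all 14 libraries in 1 fit (0.0638). The Parp9 and Dtx3l genes overlap on opposite strands, and the strand setting of the counting is not given.

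Among the regulators, Irf7 and Usp18 rose in KO. Irf7, the transcription factor that amplifies type I interferon, had 47.2, 45.8 and 50.1 CPM in KO and 32.2, 40.3 and 39.2 CPM in WT (log2 fold change 0.36 ± 0.09, adjusted p = 0.0059), without overlap, and 39.7, 36.2, 43.4 and 38.96 CPM in EPZ and 38.2, 39.7, 36.3 and 39.2 CPM in DMSO. Usp18 removes ISG15 from proteins and blocks signalling at IFNAR2. It had 3.04, 2.94 and 3.47 CPM in KO and 1.81, 1.47 and 1.70 CPM in WT (log2 fold change 0.89 ± 0.22, adjusted p = 0.0063), and DESeq2 gave an adjusted p of 0.0762, within 0.00538 to 0.0762 over the alternatives. In EPZ Usp18 had 1.19, 0.991, 1.75 and 1.89 CPM and in DMSO 0.959, 0.738, 0.613 and 0.861 CPM, a difference that was not called (log2 fold change 0.80 ± 0.28, adjusted p = 0.065). Its adjusted p in EPZ was 0.0289 with all 14 libraries in 1 fit and 0.042 without EPZ 2 (0.0289 to 0.162 over the alternatives). Stat2 and Irf9, which belong to the complex that binds the ISRE, were called in neither comparison. Stat2 had 55.9, 48.3 and 47.5 CPM in KO and 43.8, 39.4 and 49.97 CPM in WT, and 46.7, 37.6, 38.4 and 40.4 CPM in EPZ and 52.6, 38.6, 54.7 and 48.03 CPM in DMSO. The adjusted p of Stat2 was 0.173 in KO (0.0447 without WT 3) and 0.139 in EPZ (0.0301 without DMSO 2). Irf9 had 75.3, 71.3 and 71.2 CPM in KO and 83.6, 77.2 and 83.3 CPM in WT, and 56.6, 60.4, 64.4 and 57.3 CPM in EPZ and 54.5, 53.7, 64.98 and 59.7 CPM in DMSO. Every KO library of Irf9 lay below every WT library (log2 fold change -0.16 ± 0.07, adjusted p = 0.074; 0.0455 without WT 2, and 0.0455 to 0.268 over the alternatives), and the EPZ and DMSO libraries overlapped. The Irf9 gene overlaps Rnf31 on the same strand. Irf1, a target of interferon gamma, rose in EPZ, at 139, 174, 163 and 164 CPM against 121, 135, 138 and 139.5 CPM in DMSO (log2 fold change 0.27 ± 0.07, adjusted p = 0.028; 0.0823 without DMSO 1, 0.0592 without DMSO 2, 0.0818 without EPZ 2, 0.0563 without EPZ 3 and 0.0733 without EPZ 4).

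The GBP and IRG GTPases attack the membranes of vacuoles that hold parasites and bacteria, and are classic targets of interferon gamma. Of the 8, 3 rose in KO and 5 rose in EPZ, none was called lower, and Irgm1, Gbp4 and Gbp7 rose in both. Irgm1 had 154, 142 and 143 CPM in KO and 133, 85.2 and 116 CPM in WT (log2 fold change 0.39 ± 0.11, adjusted p = 0.014; 0.0572 without KO 1), with WT 2 the lowest. It had 77.4, 91.98, 91.1 and 88.6 CPM in EPZ and 66.6, 69.9, 64.7 and 67.7 CPM in DMSO (log2 fold change 0.38 ± 0.07, adjusted p = 0.0029). The KO and the EPZ libraries of Irgm1 lay above their controls, and the EPZ call held under every alternative run.

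Gbp4 had 293, 279.9 and 271 CPM in KO and 231, 199.8 and 245 CPM in WT (log2 fold change 0.32 ± 0.07, adjusted p = 0.0028). It had 225, 203, 206 and 234 CPM in EPZ and 177, 161, 209 and 179 CPM in DMSO (log2 fold change 0.26 ± 0.08, adjusted p = 0.043; 0.0932 without DMSO 1, 0.116 without DMSO 2, 0.0908 without DMSO 4, 0.0954 without EPZ 1 and 0.122 without EPZ 4). The gene overlaps Gbp8 and Gbp9, so its counts are uncertain. Gbp7 had 107, 98.8 and 109 CPM in KO and 83.96, 77.4 and 95.8 CPM in WT (log2 fold change 0.29 ± 0.08, adjusted p = 0.012), and rose in EPZ too (log2 fold change 0.26 ± 0.05, adjusted p = 0.007). Gbp2 rose in EPZ, at 97.7, 111, 102 and 104 CPM against 82.8, 85.7, 79.7 and 87.97 CPM in DMSO (log2 fold change 0.31 ± 0.06, adjusted p = 0.0042). Igtp, which overlaps Irgm2 on the same strand, had 145, 152, 136 and 152 CPM in EPZ and 129.6, 120.1, 123 and 119.7 CPM in DMSO (log2 fold change 0.25 ± 0.06, adjusted p = 0.0094), whereas it had 173, 162 and 153 CPM in KO and 205, 149 and 196 CPM in WT, which was not called. Gbp3, Gbp5 and Irgm2 were called in neither comparison.

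**Figure D3:**
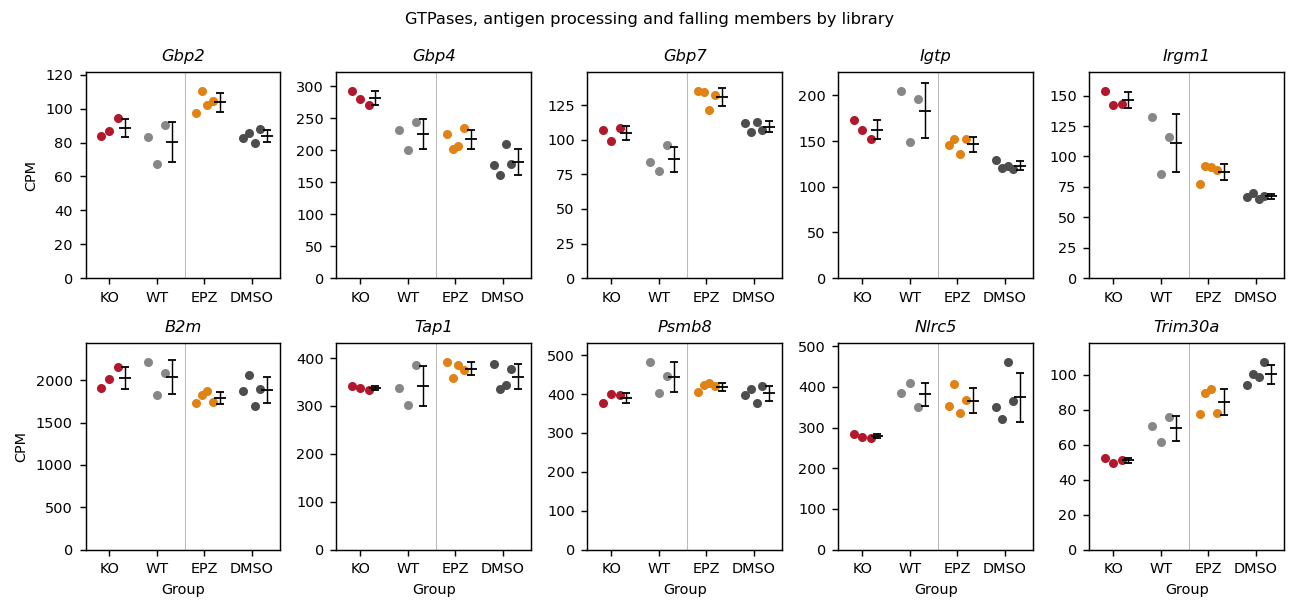
CPM of 5 GTPase genes (top), 4 antigen processing genes and Trim30a (bottom) in each library (dots), with the mean and SD of the group (bars) on a linear axis from 0. The EPZ dots of Gbp2, Gbp7, Igtp and Irgm1 lie above all DMSO dots, and the Nlrc5 and Trim30a dots of KO lie below all WT dots.

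The antigen processing genes load peptides onto MHC class I. B2m, the light chain of class I, was the most abundant of the 50 per transcript length (RPKM), at a mean of 2355 RPKM in KO, 2370 RPKM in WT, 2085 RPKM in EPZ and 2189 RPKM in DMSO. Psmb8 and Tapbp followed, at 102.1 to 131.3 RPKM over the group means. None of the 7 genes was called higher, and Nlrc5, the transactivator of class I genes, fell in KO, at 284, 277 and 275 CPM against 384, 409 and 352 CPM in WT (log2 fold change -0.44 ± 0.07, adjusted p = 0.00016). The other 6 were not called in KO, and none of the 7 was called in EPZ, where the log2 fold changes ran from -0.10 to 0.08. The difference between the effects on Nlrc5 was not called in the main fit (-0.42 ± 0.14, adjusted p = 0.085). Its adjusted p ran from 0.00482 (without DMSO 3) to 0.177 over the alternatives, and the difference was also called with no filter. A value that misses the threshold does not show that a gene did not differ.

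**Figure D4:**
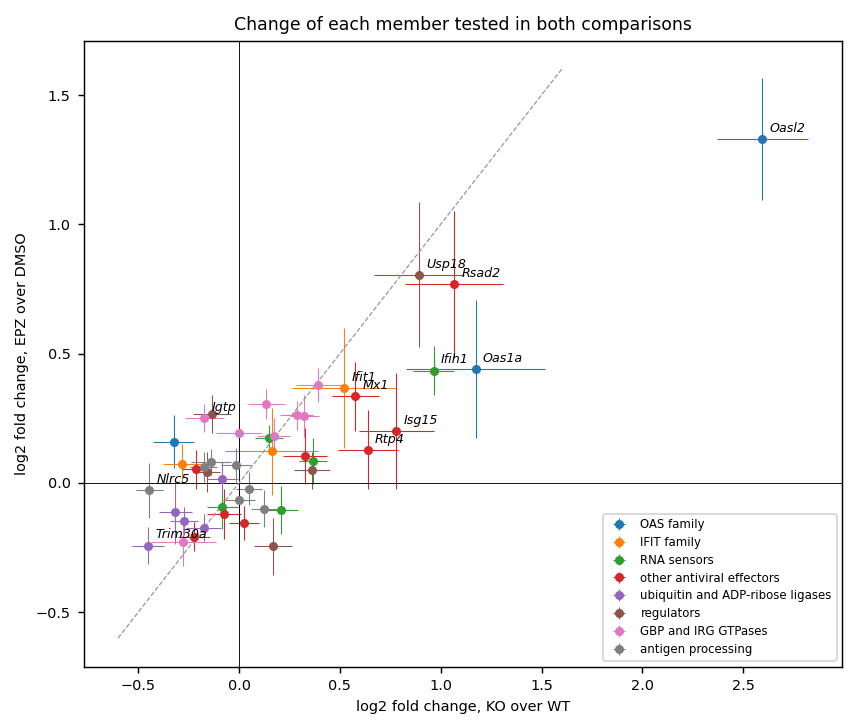
Log2 fold change of EPZ over DMSO against that of KO over WT for the 45 genes tested in both, with SE bars and coloured by subgroup; the dashed line marks equal effects. Oasl2 lies far out on both axes, and Oas1a, Isg15 and Rtp4 lie below the dashed line.

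The effects of KO and EPZ were compared in 1 fit of all 14 libraries. Of 49 genes tested, Oasl2 and Ifih1 had a larger effect in KO, Igtp had a lower one, and 46 were not called (15 had an unadjusted p under 0.05). Over 12639 genes, 7.6% were called, 3.29% higher and 4.31% lower. The difference was 1.27 ± 0.35 for Oasl2 (adjusted p = 0.036), 0.52 ± 0.13 for Ifih1 (adjusted p = 0.021) and -0.43 ± 0.12 for Igtp (adjusted p = 0.042), whose effects had opposite signs. All 3 calls were lost under at least 1 alternative. With the replicate block the adjusted p of Oasl2 was 0.0818, and it was 0.0705 without KO 1, 0.0638 without KO 2, 0.0591 without KO 3, 0.0847 without WT 1, 0.0789 without WT 2, 0.0565 without DMSO 3 and 0.0605 without DMSO 4. For Ifih1 it was 0.0606 without KO 3 and 0.0612 without WT 3. For Igtp it was 0.0552 without KO 1, 0.125 without KO 2, 0.124 without KO 3, 0.119 without WT 1, 0.113 without WT 3, 0.0613 without DMSO 1, 0.09 without DMSO 2, 0.0892 without DMSO 4, 0.0702 without EPZ 1, 0.0796 without EPZ 2 and 0.0806 without EPZ 4, and 0.0576 with RLE size factors. With the filter of 10 CPM the adjusted p of Igtp was 0.0566. The experiments also differ in genotype and 4-hydroxytamoxifen, which cannot be told apart from knockout against inhibitor here.

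The pathway around these genes was read from lists of interferon genes, receptors and signalling genes, sensor adaptors and class I genes. Of 21 interferon genes, 18 had no count in any library. Ifng, which encodes interferon gamma, had 12.7, 12.97 and 11.1 CPM in KO and 3.02, 1.28 and 2.17 CPM in WT (log2 fold change 2.47 ± 0.20, adjusted p = 7.6e-07), and 1.47, 2.48, 2.98 and 2.30 CPM in EPZ and 0.575, 0.574, 1.23 and 0.516 CPM in DMSO (log2 fold change 1.77 ± 0.32, adjusted p = 0.0032). The other 2 with counts, Ifnab and Ifnz, stayed under 0.3 CPM.

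Of 20 receptor and signalling genes tested, 4 rose and 5 fell in KO, and 2 rose and 5 fell in EPZ. Over all genes tested, 40.4% were called in KO and 20.2% in EPZ, and nothing particular to the list is read from its counts. Ifngr2, the second chain of the interferon gamma receptor, had 1.01, 1.92 and 1.34 CPM in KO and 12.3, 12.3 and 12.6 CPM in WT (log2 fold change -2.99 ± 0.19, adjusted p = 1.2e-07). In EPZ it had 11.2, 9.20, 13.8 and 8.22 CPM and in DMSO 16.7, 14.01, 14.96 and 10.7 CPM, which was not called, and the effects differed (-2.60 ± 0.31, adjusted p = 7.9e-05). Ifnar2 had 51.7, 52.2 and 50.5 CPM in KO and 94.4, 83.96 and 90.4 CPM in WT (log2 fold change -0.79 ± 0.07, adjusted p = 1.5e-06), and 75.9, 74.9, 76.95 and 70.4 CPM in EPZ and 91.5, 88.2, 85.8 and 83.6 CPM in DMSO (log2 fold change -0.22 ± 0.06, adjusted p = 0.017; 0.0541 without DMSO 1 and 0.0502 without DMSO 2). Jak1 fell in both, by 0.46 on the log2 scale in KO (adjusted p = 3.2e-05) and by 0.30 in EPZ (adjusted p = 0.016; 0.053 without EPZ 1 and 0.0516 without EPZ 4). Also lower in KO were the phosphatase gene Ptpn6 (-0.59) and Irf2bp2 (-0.22; 0.0509 without KO 1 and 0.157 without KO 2), and lower in EPZ were Irf2bp2 (-0.37), Irf2 (-0.24) and the feedback inhibitor gene Socs3 (-0.41). The KO call of Irf2bp2 was also lost with DESeq2 (adjusted p = 0.0567).

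Jak2 rose in KO, at 212, 204 and 236 CPM against 140.5, 145 and 152 CPM in WT (log2 fold change 0.58 ± 0.07, adjusted p = 1.6e-05), together with Irf8 (0.67), Irf5 (0.48) and Stat3 (0.16, adjusted p = 0.043; 0.207 without KO 1, 0.0528 without KO 2, 0.0701 without WT 1, 0.0747 without WT 2 and 0.0654 without WT 3). Irf5 rose in EPZ as well (log2 fold change 0.44 ± 0.13, adjusted p = 0.03; 0.0913 without DMSO 2, 0.0597 without DMSO 3, 0.0699 without DMSO 4, 0.0719 without EPZ 1 and 0.0709 without EPZ 3). The KO call of Stat3 was also lost with DESeq2 (adjusted p = 0.0628), no filter (0.121), the replicate block (0.0812) and sex as a covariate (0.0581). The chains Ifnar1 and Ifngr1 were called in neither comparison.

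**Figure D5:**
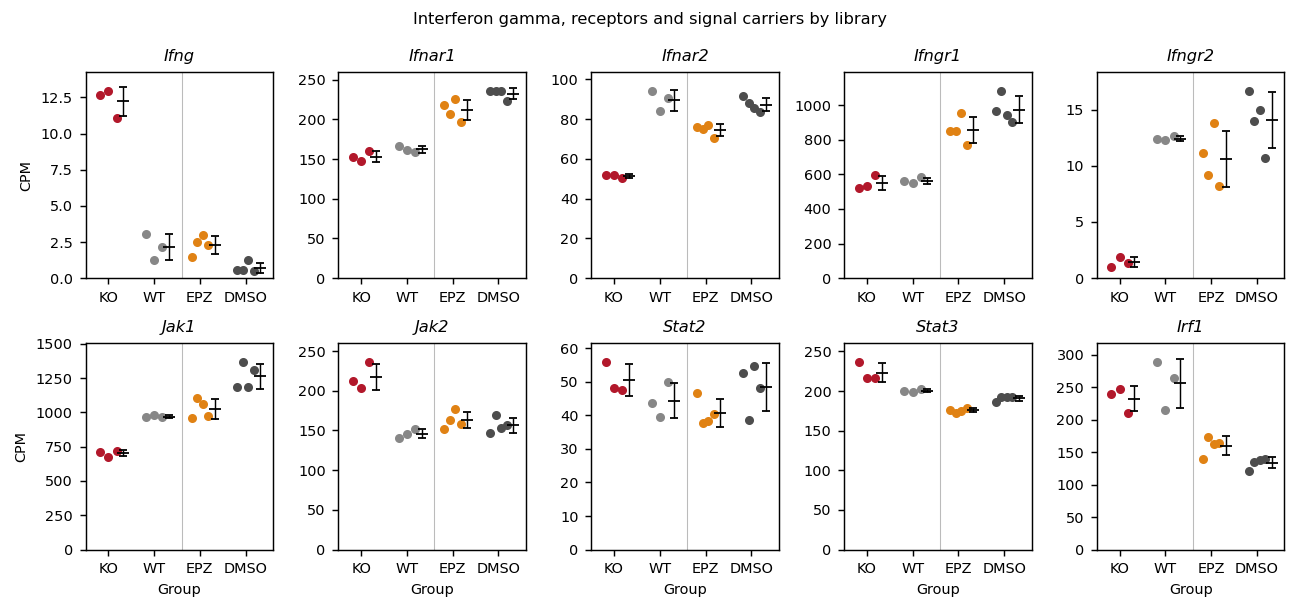
CPM of Ifng, 4 receptor chains, 2 kinases, Stat2, Stat3 and Irf1 in each library (dots), with the mean and SD of the group (bars) on a linear axis from 0. The KO dots of Ifng lie above and those of Ifngr2, Ifnar2 and Jak1 lie below all WT dots.

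Of 12 sensor adaptors and kinases tested, 2 rose and 5 fell in KO, and 2 fell in EPZ. These counts and those of the class I genes are read beside the 40.4% and 20.2% of all genes called, as description only. Samhd1, which depletes the nucleotides that viruses need, had 394, 401 and 389 CPM in KO and 676, 720.2 and 711 CPM in WT (log2 fold change -0.82 ± 0.06, adjusted p = 1.8e-07). Traf3 (-0.49) and Ikbke (-0.43) also fell in KO, and Ikbke fell in EPZ too (log2 fold change -0.35 ± 0.08, adjusted p = 0.011). Of 14 class I genes and chaperones, 5 rose and 1 fell in KO, and 2 rose and 1 fell in EPZ. The chaperone gene Calr rose in both, by 0.61 ± 0.07 in KO (adjusted p = 1.8e-05) and 0.34 ± 0.08 in EPZ (adjusted p = 0.0099). The chaperone genes Canx (0.26, adjusted p = 0.003) and Pdia3 (0.26, adjusted p = 0.0056) and the class I gene H2-Q6 (0.34, adjusted p = 0.0015), which shares reads with its near copies, also rose in KO, and Psme2, a subunit of the proteasome activator, rose in EPZ (0.23, adjusted p = 0.013; 0.0517 without DMSO 4). H2-T23 fell in both, by 0.24 in KO (adjusted p = 0.0063) and by 0.26 in EPZ (adjusted p = 0.036; 0.0591 without DMSO 1, 0.106 without DMSO 2, 0.0668 without DMSO 4, 0.0821 without EPZ 1, 0.0805 without EPZ 2 and 0.102 without EPZ 4). Its EPZ call was also lost with the filter of 10 CPM (0.0502) and with sex as a covariate (0.0515).

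Control levels differed between the experiments for some genes, which was not tested. Irf1 averaged 257 ± 37.6 CPM in WT and 134 ± 8.39 CPM in DMSO, Irgm1 111 ± 24.02 CPM in WT and 67.2 ± 2.17 CPM in DMSO, and Gbp5 10.3 ± 1.79 CPM in WT and 22.7 ± 2.21 CPM in DMSO (SD, n = 3 and n = 4). Experiment, Cre and 4-hydroxytamoxifen cannot be told apart in these levels.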

How the data were processed

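RNA of 14 libraries was sequenced with stranded mRNA libraries, per the labels' protocols. The authors deposited raw read counts per gene with gene coordinates, per the file headers; the submitters' processing notes name TopHat2 2.1, Bowtie 1.1, HTSeq and build mm10. No source used here gives the strand setting or annotation release, so overlapping genes are uncertain. The table's 1 row without a gene name was left out and held 0 counts. The members and lists were chosen with earlier results of these data known.

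The test was edgeR's quasi-likelihood F-test (version 4.0.16, R 4.3.3) with TMM factors and filterByExpr (min.count 10, min.total.count 15), and Benjamini-Hochberg adjustment covered every gene tested. Fits were made for KO against WT, for EPZ against DMSO, and on all 14 libraries for the difference between these effects. No main fit had a block for animal. An SE is the log2 fold change divided by the square root of F. RPKM use exon lengths of GENCODE mouse release M21. Alternatives were RLE size factors, DESeq2 1.42.0, no filter, a filter of 10 CPM, a replicate block, sex as a covariate, a fit of all libraries, and leaving out each library.

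Named genes were, per subgroup, up to 3 called members with the smallest adjusted p in KO against WT and up to 2 in EPZ against DMSO, with Irf7, Irf9, Stat2 and Usp18; of each other list, called receptors and signalling genes and up to 4 others. The tests were checked on simulated data, in which every gene was given the same excess spread between libraries, a simplification. The number of library pairs within a group was 18, and none was a copy of another (chi-square per degree of freedom 2.05 to 18.1). EPZ and DMSO libraries pair by animal, per the library names: 3 of 4 pairs had a correlation of deviations above 0.1 (0.0113 to 0.587). Only 2 of the 4 EPZ libraries had their highest correlation with the DMSO library of the same animal. Replicates are labelled biological. The reads carry no molecular identifiers. Values of some genes of the marker and pathway lists are not reported here, though the counts over those lists include them.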

Additional observations from a re-analysis of the deposited data

Results flagged for a closer look

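Of 96 groups of 4 libraries with at least 20 counts, 5 had a library far from the other 3, where chance gives about 1 in 20 and so about that number. The gap as a share of the group's range was 0.897 for Oas1a in EPZ 4 (1.32 CPM, the others 0.881 to 0.926 CPM) and 0.846 for Ddx58 in EPZ 4 (128.5 CPM, the others 118.1 to 119.7 CPM). It was 0.852 for Ifi35 in DMSO 3 (52.2 CPM, the others 43.9 to 45.2 CPM), 0.831 for Mx2 in EPZ 2 (0.110 CPM, the others 0.360 to 0.411 CPM) and 0.875 for Tap2 in DMSO 3 (258.4 CPM, the others 291.8 to 296.6 CPM).

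The effect of KO minus that of EPZ, as a difference of log2 fold changes tested in the fit of all libraries, was called for 3 members: Oasl2 (1.27), Ifih1 (0.523) and Igtp (-0.428). In the pathway lists it was called for Ifngr2 (-2.60), Ifnar2 (-0.574), Jak2 (0.519), Stat3 (0.272), Ptpn6 (-0.439), Traf3 (-0.488) and Samhd1 (-0.636). Dot1l had more counts in the libraries labelled KO than in WT, and Xist and Ddx3y went against the labelled sex in 4 of the 6 KO and WT libraries. Exchanging the sex labels of replicates 2 and 3 within each group would match them. So would exchanging KO 2 with WT 2 and KO 3 with WT 3, which would change the groups, and neither was tested. Ncr1 had 28, 89 and 47 counts in KO 1, KO 2 and KO 3 and 0 counts in WT 1, WT 2 and WT 3. Ifngr2 had 8, 36 and 12 counts in these KO libraries and 102, 67 and 245 in these WT libraries. On both genes, picked for their large difference, KO 2 and KO 3 lay with KO 1, and WT 2 and WT 3 lay with WT 1. In KO 1 over WT 1 alone, which are part of the comparison, all 23 called members kept their sign.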

How the results depend on the processing

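Of 23 members called between KO and WT, 13 were called under every alternative that tested them (Oasl1, Oasl2, Ifih1, Eif2ak2, Rsad2, Mx1, Rtp4, Trim30a, Dtx3l, Irf7, Gbp4, Gbp7 and Nlrc5), as were 6 of 12 between EPZ and DMSO (Oasl2, Ifih1, Gbp2, Gbp7, Igtp and Irgm1) and 0 of 3 for the difference of effects. No called member changed sign. Oasl1, Oasl2 and Rsad2 were too low to be tested with the filter of 10 CPM. Oasl1 and Oasl2 entered the main test of KO against WT through the KO libraries, where they are high. Between KO and WT, 5 members fell with DESeq2, and 15 were called and 5 fell with the filter of 10 CPM, which tests fewer genes. For the difference, 0 were lower with RLE size factors; 7 were called and 4 lower with no filter; 1 was called, 1 higher and 0 lower with the filter of 10 CPM; and 2 were lower with sex as a covariate. The cause was not tested. With the replicate block the difference gave 1 higher; between KO and WT, whose numbers name different animals (0 of 3 pairs above 0.1), it gave 21 calls; it changed no call between EPZ and DMSO. Leaving out 1 library gave 18 to 27 calls between KO and WT (14 to 18 higher, 3 to 12 lower; 3 lower without KO 2, 5 without WT 1), 6 to 12 between EPZ and DMSO (6 to 9 higher, 0 to 3 lower; 7 in all without DMSO 2, 6 without EPZ 4), and 0 to 6 for the difference (0 to 4 higher, 0 to 5 lower). Some uncalled log2 fold changes of EPZ over DMSO changed sign when 1 library was left out: Rtp4 ran from -0.0111 (without DMSO 1) to 0.221, Parp14 from -0.200 to 0.00113 (without DMSO 3), Irf7 from -0.00783 (without EPZ 3) to 0.0879, Irf9 from -0.00235 (without EPZ 3) to 0.0889, and Nlrc5 from -0.100 to 0.0771 (without DMSO 3), with 0.00521 without EPZ 3. The share of promoters with an ISRE core was 43.2% when a C had to follow it, against 0.944% of all genes. Low counts limit Oasl1, Oas2, Ifit3b, Ifi44 and Mx2.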
